A study of Mus musculus with 38 samples.

Results

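Irf8, Spi1, Runx1, Ikzf1, Mef2c, Cebpa and Irf5 were followed here as transcription factors of microglia. They were chosen by name, with earlier results of these data known, and were found through their Ensembl identifiers. They are 7 of the 48709 genes counted in the hippocampus of 38 mice in 8 groups.

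Microglia are the resident macrophages of the brain, and their identity is set by a small group of DNA-binding proteins. Spi1 encodes PU.1, the ETS-family factor without which the myeloid lineage does not form, and it shares many enhancers with the interferon regulatory factor Irf8 and with the C/EBP, RUNX and MEF2 families. Irf8 and Irf5 have been studied in reactive microglia, Runx1 and Ikzf1 are general factors of blood cell development, Cebpa drives myeloid maturation, and Mef2c belongs to the homeostatic program of microglia and is also widely used by neurons.

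All mice were on a C57BL/6 background. APPPS1dE9 mice carry the transgenes of an amyloid model, among them mutant amyloid precursor protein (the genotype label reads APPdelta9), and the WT mice carry none. Chow held anle138b, a diphenylpyrazole compound that modulates oligomers, or no compound (placebo), for 4 months starting at 2 months of age (killed at 6 months, pre-plaque) or at 6 months of age (killed at 10 months, post-plaque). At 6 months each of the 4 combinations of genotype and chow had 4 mice, and at 10 months there were 5 placebo WT, 5 anle138b WT, 5 placebo APPPS1dE9 and 7 anle138b APPPS1dE9 mice. RNA came from whole hippocampus, so that fewer cells of a type and less RNA per cell cannot be told apart in any value below. Replicates are separate mice, and p-values measure the spread between them. Age and cohort go together.

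Total counts were 15847985 to 31895808 per mouse, and the 7 factors had between 13 (Runx1) and 4198 (Mef2c) counts in a mouse. Levels are given as CPM, counts relative to library size after TMM scaling over the 38 mice. The transgenes matched the titles, with App at 1516 to 1806 CPM in WT and 3235 to 4316 CPM in APPPS1dE9 mice, also in the 4 placebo WT mice of 6 months whose genotype label names the transgene. Prnp, whose promoter drives the transgenes of this line, separated the genotypes too, at 930.8 to 1242 against 2242 to 2927 CPM. Although the study describes male mice, 12 of the 38 libraries had Xist at 1160 CPM or more with Y-linked genes near 0, and 11 of these were WT. Sequencing lanes nearly coincided with groups, so that lane cannot be told apart from genotype or, for the most part, from chow. In 9 mice of 10 months (4 APPPS1dE9 and 5 WT) 4 oligodendrocyte markers summed to less than 3500 CPM, and no mouse of 6 months lay under that value. Mouse 39, an anle138b-treated WT mouse of 6 months, stood apart from all others. In it 1823 genes lay over 1 log2 unit above every other mouse, against 0 to 28 genes in each of the other 37 mice, and 81.5% of them were annotated pseudogenes against 20.8% of all genes. Runx1 was the only one of the 7 factors among them, and its values at 6 months, its level and its correlations are given with and without mouse 39.

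Per kilobase of exon (FPKM, mean ± SD over 38 mice), Mef2c was the most abundant of the 7 factors at 8.27 ± 1.03. Cebpa followed at 5.22 ± 1.31 FPKM, Irf5 at 1.82 ± 0.397, Spi1 at 1.28 ± 0.261, Irf8 at 0.993 ± 0.330 and Ikzf1 at 0.888 ± 0.205. Runx1 was lowest at 0.108 ± 0.0580 FPKM (0.1 ± 0.0367, with a highest value of 0.181, without mouse 39). Of neighbours in this order, the ranges over mice did not overlap for Cebpa (3 FPKM or more) and Irf5 (2.63 or less), nor for Ikzf1 (0.622 or more) and Runx1 (0.38 or less). The other 4 neighbouring pairs overlapped. By group, the highest mean of Irf8 was in the anle138b and placebo APPPS1dE9 mice of 10 months, followed by the placebo and anle138b APPPS1dE9 mice of 6 months and then the 4 WT groups, and of the neighbours in that order only the 2 APPPS1dE9 groups of 6 months did not overlap. For the other 6 factors all neighbouring groups overlapped, for Runx1 only with mouse 39 included. Without it, the anle138b WT mice of 6 months (0.936 to 0.954 CPM of Runx1) did not overlap the neighbouring placebo ones (0.734 to 0.86 CPM). In raw counts of Runx1 these groups overlapped, at 19 to 25 against 16 to 22.

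The older mice are described first. At 10 months, over both chows (12 APPPS1dE9 against 10 WT mice), Irf8, Runx1, Spi1, Ikzf1 and Irf5 were higher in APPPS1dE9 mice, by 1.43-fold to 1.92-fold. Cebpa and Mef2c did not pass the test. By edgeR's quasi-likelihood test with Benjamini-Hochberg adjustment, 5 of the 7 factors were past an adjusted p of 0.1, against 1.43% of the 17668 genes tested. The median log2 fold change of the 7 was 0.52, and that of all genes tested was -0.0044. For Irf8 and Runx1 every APPPS1dE9 mouse lay above every WT mouse, a separation that 0.396% of all tested genes showed in that direction. All 5 were called in each of the 22 fits that left out 1 mouse. In 2 smaller sets chosen after the data were seen, 3 of the 7 were called: Irf8, Runx1 and Irf5 passed without the 9 mice of low oligodendrocyte markers (8 against 5 mice) and among the mice with low Xist (11 against 4 mice).

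**Figure D1:**
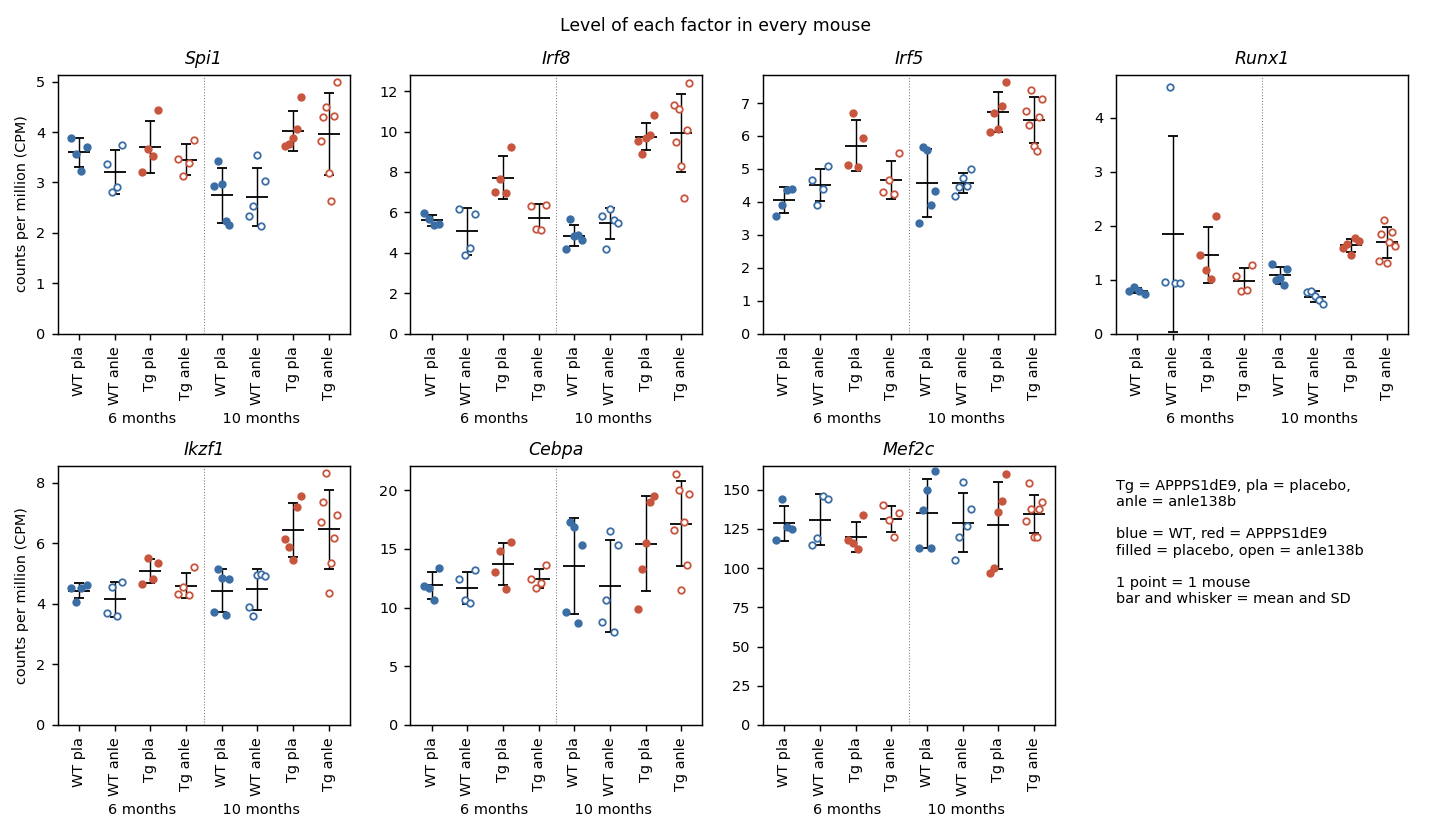
Level of each factor in CPM (linear axis from 0), 1 point a mouse, in the 4 groups of 6 months and the 4 groups of 10 months, with the mean and SD of each group. In the Irf8 panel the 12 APPPS1dE9 mice of 10 months sit at 6.71 CPM or more and the 10 WT mice of that age at 6.16 CPM or less, and in the Runx1 panel mouse 39 stands alone at 4.57 CPM.

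Irf8 (chr8:120736358-120756694, plus strand, GRCm38) encodes interferon regulatory factor 8, a partner of PU.1 on DNA. At 10 months placebo WT mice had 4.21, 4.65, 4.81, 4.88 and 5.67 CPM, and placebo APPPS1dE9 mice had 8.9, 9.53, 9.7, 9.84 and 10.8 CPM. With anle138b, WT mice had 4.18, 5.47, 5.63, 5.81 and 6.16 CPM, and the 7 APPPS1dE9 mice ran from 6.71 over a median of 10.1 to 12.4 CPM. The genotypes did not overlap under either chow. The log2 fold change over both chows was 0.92 ± 0.09 (SE), a 1.90-fold difference (edgeR adjusted p = 1.32e-06). Irf8 was the only one of the 7 called in the placebo mice alone, where 0.324% of 16971 tested genes were called (log2 fold change 0.996 ± 0.09, edgeR adjusted p = 0.000952), and it was also called in the anle138b mice (0.85 ± 0.15, edgeR adjusted p = 0.0219).

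The windows of RefSeq (GRCm38.p6) from 250 bases before to 50 after each annotated start were read for the factors, of which 6 had 1 to 3 windows, 11 in all. They are shown for Irf8 and Runx1, whose levels separated the genotypes in full. Of the windows of Irf8, the upstream one (chr8:120736108-120736407, plus strand) holds 2 matches to the interferon-gamma-activated site TTCNNNGAA, in capitals, whose first bases lie 171 and 153 bases before the start.

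Irf8 upstream promoter: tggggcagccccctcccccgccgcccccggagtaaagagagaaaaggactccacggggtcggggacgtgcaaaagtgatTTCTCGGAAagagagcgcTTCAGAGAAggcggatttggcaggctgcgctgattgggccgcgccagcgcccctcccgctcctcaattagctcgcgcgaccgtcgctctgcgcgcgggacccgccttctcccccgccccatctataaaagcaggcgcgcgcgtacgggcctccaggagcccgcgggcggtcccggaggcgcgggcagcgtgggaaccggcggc

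This palindromic motif (9 letters, the same on both strands) occurs in 8.3% of the 32851 windows of this length. Single matches stand in the second window of Ikzf1 and the first of Mef2c, and none in the windows of Runx1, Cebpa and Irf5. The Irf8 window had 38 CG dinucleotides, against a median of 7 over all windows. A match describes letters and no binding was measured.

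Runx1 (chr16:92601466-92826149, minus strand), the RUNX-family factor of definitive blood formation, was the lowest of the 7 in level. Placebo WT mice of 10 months had 0.899, 0.985, 1.03, 1.2 and 1.28 CPM and placebo APPPS1dE9 mice 1.46, 1.59, 1.65, 1.72 and 1.77 CPM. With anle138b, WT mice had 0.547, 0.63, 0.701, 0.766 and 0.781 CPM, and APPPS1dE9 mice had a lowest value of 1.31, a median of 1.7 and a highest of 2.11 CPM. The genotypes again did not overlap under either chow. The log2 fold change over both chows was 0.94 ± 0.10 (1.92-fold, edgeR adjusted p = 5.24e-06). In the anle138b mice alone it was 1.28 ± 0.16 (edgeR adjusted p = 0.00277), and in the placebo mice alone 0.60 ± 0.15, which did not pass (edgeR adjusted p = 0.275). These values rest on few reads, since Runx1 had a median of 28 counts per mouse. An antisense gene, Gm26626, shares 106 exon bases with it and had 9 counts over the 38 libraries.

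Runx1 is read from a distal and a proximal start. The distal window (chr16:92826025-92826324, minus strand) holds 2 copies of ACCACA, the RUNX motif TGTGGT read on the other strand, beginning 29 and 37 bases after the start. The proximal window (chr16:92697280-92697579, minus strand) holds 1 copy of TTCCTC, the ETS motif GAGGAA read on the other strand, 46 bases before the start. The matches are in capitals.

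Runx1 distal promoter: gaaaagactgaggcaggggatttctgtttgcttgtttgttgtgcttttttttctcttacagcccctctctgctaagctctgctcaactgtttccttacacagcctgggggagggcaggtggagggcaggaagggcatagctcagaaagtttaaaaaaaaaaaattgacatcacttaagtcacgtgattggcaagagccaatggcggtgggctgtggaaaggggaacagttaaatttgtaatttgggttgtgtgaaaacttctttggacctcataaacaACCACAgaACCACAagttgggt

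Runx1 proximal promoter: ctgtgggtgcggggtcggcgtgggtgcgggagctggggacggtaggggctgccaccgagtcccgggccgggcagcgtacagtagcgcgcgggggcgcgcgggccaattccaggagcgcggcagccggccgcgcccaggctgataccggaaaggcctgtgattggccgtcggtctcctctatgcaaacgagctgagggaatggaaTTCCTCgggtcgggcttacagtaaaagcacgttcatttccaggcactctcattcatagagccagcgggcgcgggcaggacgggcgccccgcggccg

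TGTGGT or its complement occurs at least once in 16.8% of all 32851 windows and GAGGAA or its complement in 28.3%. A single match of either is therefore not rare, and the share of windows with 2 copies of TGTGGT was not counted. The distal window had 2 CG dinucleotides and the proximal one 35. Gene counts do not tell which start was used. The C/EBP motif TTGCNNAA (10.8% of all windows) and the 10-letter MEF2 core motif (3.69%) were in none of the 11 windows of the factors, and GAGGAA was also in the first 2 windows of Mef2c.

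Irf5 (chr6:29526625-29541871, plus strand) encodes an interferon regulatory factor of Toll-like receptor signalling. Placebo WT mice of 10 months had 3.36, 3.89, 4.32, 5.58 and 5.67 CPM and placebo APPPS1dE9 mice 6.13, 6.22, 6.7, 6.91 and 7.65 CPM. With anle138b the WT values were 4.19, 4.45, 4.49, 4.72 and 5 CPM, and APPPS1dE9 mice ran from 5.54 over a median of 6.58 to 7.4 CPM. Within each chow the genotypes did not overlap, while over both chows 11 of 12 APPPS1dE9 mice exceeded the highest WT mouse. The log2 fold change over both chows was 0.52 ± 0.08 (edgeR adjusted p = 0.000685), and in the anle138b mice alone 0.49 ± 0.09 (edgeR adjusted p = 0.0353). In the anle138b mice alone the call was lost without WT mouse 60 (edgeR adjusted p = 0.121) or WT mouse 61 (0.130), and in the placebo mice alone the value of 0.54 ± 0.15 did not pass (0.443). Irf5 shares 411 exon bases with Tnpo3 on the opposite strand, and the strand setting of the counting is not given in the sources used here, so its level is uncertain.

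Spi1 (chr2:91082390-91115756, plus strand) rose with genotype at 10 months by 0.54 ± 0.12 on the log2 scale (1.45-fold, edgeR adjusted p = 0.0147). Placebo WT mice had 2.16, 2.23, 2.93, 2.97 and 3.43 CPM and placebo APPPS1dE9 mice 3.73, 3.76, 3.89, 4.06 and 4.7 CPM, without overlap. With anle138b, WT mice had 2.13, 2.34, 2.54, 3.03 and 3.54 CPM and APPPS1dE9 mice ran from 2.63 over a median of 4.3 to 5 CPM. Here the groups overlapped, and APPPS1dE9 mouse 99 was lowest of its genotype at 2.63 CPM, as it was in Irf8 (6.71) and Irf5 (5.54). Choroid plexus markers summed to 4290 CPM in mouse 99 and to 30.9 to 291 CPM in all other mice of 10 months. Their part in its values was not tested. Spi1 passed in neither chow alone (0.55 ± 0.15 in placebo mice, edgeR adjusted p = 0.44, and 0.53 ± 0.17 in anle138b mice, edgeR adjusted p = 0.55). It did not pass without the 9 mice of low oligodendrocyte markers (0.43 ± 0.16, edgeR adjusted p = 0.439) or among the mice with low Xist (0.59 ± 0.16, edgeR adjusted p = 0.206).

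Ikzf1 (chr11:11685003-11772926, plus strand), which encodes the zinc finger protein Ikaros, rose by 0.52 ± 0.11 on the log2 scale (1.43-fold, edgeR adjusted p = 0.0088). Placebo WT mice had 3.64, 3.72, 4.82, 4.85 and 5.16 CPM and placebo APPPS1dE9 mice 5.44, 5.88, 6.13, 7.19 and 7.57 CPM. With anle138b, WT mice had 3.59, 3.91, 4.92, 4.95 and 5 CPM and APPPS1dE9 mice had a lowest value of 4.35, a median of 6.71 and a highest of 8.32 CPM. The placebo groups did not overlap, and 11 of the 12 APPPS1dE9 mice lay above every WT mouse. Within a chow it did not pass (0.52 ± 0.14 in placebo mice, edgeR adjusted p = 0.381, and 0.52 ± 0.16 in anle138b mice, edgeR adjusted p = 0.425), and without mouse 97, the lowest APPPS1dE9 mouse, it passed in the anle138b mice (0.59 ± 0.13, edgeR adjusted p = 0.0946). It missed the threshold without the 9 mice of low oligodendrocyte markers (0.47 ± 0.11, edgeR adjusted p = 0.1003) and among the mice with low Xist (0.53 ± 0.13, edgeR adjusted p = 0.125).

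By chow, 3 of the 7 factors were called in the anle138b mice of 10 months (Irf8, Runx1 and Irf5), against 0.723% of 17151 tested genes. The genotypes did not overlap, with APPPS1dE9 mice higher, for 5 factors in the placebo mice (1.11% of all tested genes) and for 3 in the anle138b mice (0.81%).

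**Figure D2:**
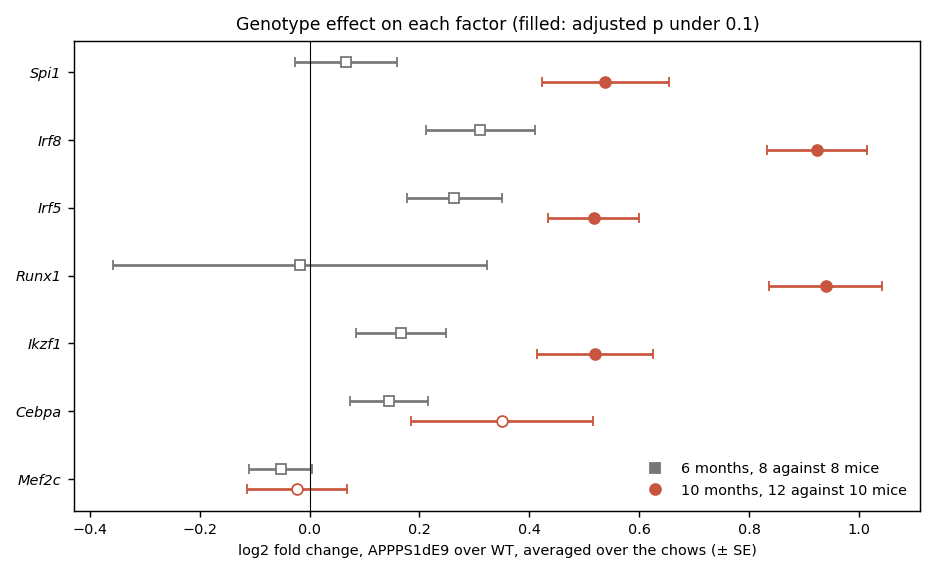
Log2 fold change of APPPS1dE9 over WT, averaged over the chows, with its SE, at 6 months (squares) and 10 months (circles) for each factor, filled where the adjusted p was under 0.1. At 10 months 5 of the 7 points are filled and lie between 0.52 and 0.94, while no point of 6 months is filled.

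Cebpa (chr7:35119293-35121928, plus strand), the C/EBP-family factor of myeloid maturation, did not pass the test at 10 months. Its log2 fold change over both chows was 0.35 ± 0.17 (edgeR adjusted p = 0.709), with WT mice at 7.92 to 17.3 CPM (median 13) and APPPS1dE9 mice at 9.9 to 21.4 CPM (median 16.9). The genotypes overlapped widely, and within each genotype the mice fell into a lower and a higher set. The 5 WT mice of low oligodendrocyte markers had 7.92 to 10.6 CPM of Cebpa and the other 5 had 15.3 to 17.3 CPM. In APPPS1dE9 mice the same split gave 9.9 to 13.6 CPM in 4 mice and 15.5 to 21.4 CPM in 8 mice. Mef2c was also lower in the mice of low oligodendrocyte markers, at 105 to 127 against 137 to 162 CPM in WT mice and 96.8 to 138 against 120 to 160.0 CPM in APPPS1dE9 mice. Means in WT mice were lower for Ikzf1 (3.97 against 4.94 CPM), Irf5 (4.08 against 5.06) and Spi1 (2.43 against 3.03), each with overlapping ranges. Irf8 overlapped across this split, at 8.31 to 10.1 against 6.71 to 12.4 CPM in APPPS1dE9 mice and 4.18 to 5.81 against 4.65 to 6.16 CPM in WT mice. Summed dentate granule cell markers separated by the same split, at 248 to 323 against 485 to 572 CPM in WT mice. In APPPS1dE9 mice they stood at 209 to 344 against 375 to 535 CPM. The split was chosen after the data were seen. The share of all genes that separate by it was not counted, so separation by it cannot be read as particular to a factor. The parts of oligodendrocyte RNA and of tissue sampling in the Cebpa values were not tested. Gm45091, an antisense gene with 206 counts over the 38 libraries, shares 51 exon bases with Cebpa.

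**Figure D3:**
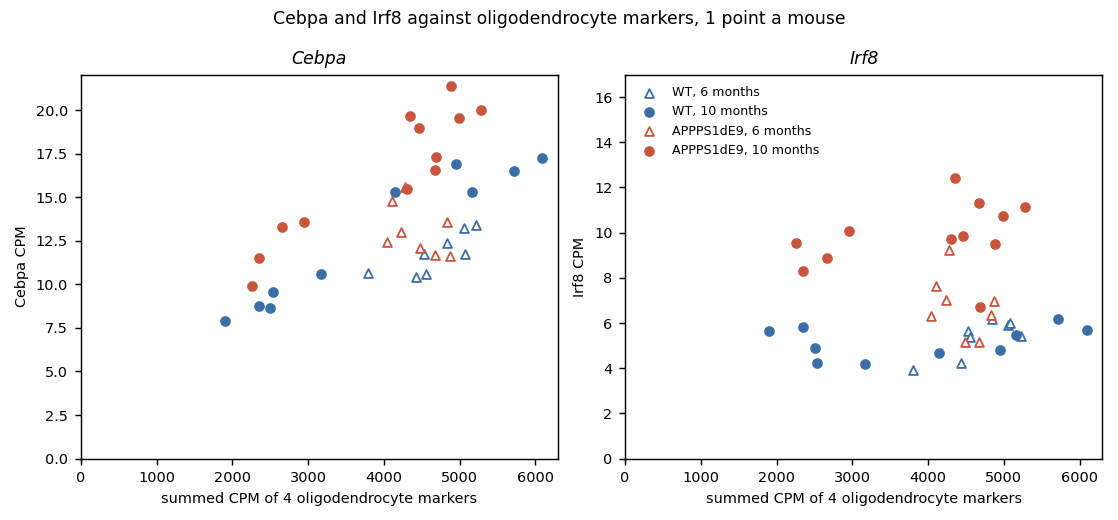
Cebpa (left) and Irf8 (right) in CPM against the summed CPM of 4 oligodendrocyte markers, 1 point a mouse, triangles for 6 months and circles for 10 months, blue for WT and red for APPPS1dE9. Cebpa climbs with the marker sum within each genotype at 10 months, from 7.92 to 17.3 CPM in WT mice, whereas for Irf8 the red circles of 10 months lie above the blue ones at low and at high sums.

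Mef2c (chr13:83504034-83667080, plus strand), a MADS-box factor of neurons as well as microglia, showed no genotype difference that passed the test. At 10 months WT mice had 105 to 162 CPM (median 132) and APPPS1dE9 mice 96.8 to 160.0 CPM (median 137), so that the ranges nearly coincided. The log2 fold change was -0.02 ± 0.09 (edgeR adjusted p = 0.991), and its 95% interval (normal approximation) reached from -0.20 to 0.16.

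At 6 months none of the 7 factors was called. Over both chows (8 against 8 mice) 0 of 7 passed, against 0.218% of 17404 tested genes, with unadjusted p under 0.05 for 2 of the 7 (Irf8 and Irf5) and 10.7% of all genes, and DESeq2 called 0 of the 7 and 164 genes in all. The log2 fold changes were 0.31 ± 0.10 for Irf8 (edgeR adjusted p = 0.304), 0.26 ± 0.09 for Irf5 (0.326), 0.17 ± 0.08 for Ikzf1, 0.15 ± 0.07 for Cebpa, 0.07 ± 0.09 for Spi1, -0.02 ± 0.34 for Runx1 and -0.05 ± 0.06 for Mef2c. Without mouse 39 the value of Runx1 was 0.46 ± 0.17 (edgeR adjusted p = 0.378) and that of Irf8 was 0.26. At this age 5 of the 8 WT mice and no APPPS1dE9 mouse had high Xist. In WT mice Irf8 was at 5.41 to 6.18 CPM with high and 3.91 to 5.36 CPM with low Xist. Spi1 (3.36 to 3.88 against 2.81 to 3.22 CPM) and Cebpa (11.7 to 13.4 against 10.4 to 10.6) separated likewise, and the other factors overlapped. The share of all genes that separate by this split was not counted. Mouse 39 was among the mice with low Xist and gave the lowest Irf8 and Spi1. In WT mice of 10 months all 3 overlapped across high and low Xist: Irf8 at 4.21 to 6.16 against 4.18 to 5.81 CPM, Spi1 at 2.13 to 3.54 against 2.16 to 3.43, and Cebpa at 7.92 to 16.9 against 8.75 to 17.3. Among the mice with low Xist (8 against 3) 0 of 7 and 5 genes in all were called. The part of sex in these values was not tested. With placebo chow alone, 0 of 7 passed against 0.0715% of 16774 tested genes, with unadjusted p under 0.05 for Irf8, Runx1 and Irf5 and for 11.1% of all genes, and DESeq2 called 0 of the 7 and 139 genes in all.

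In the placebo mice of 6 months every APPPS1dE9 mouse lay above every WT mouse for 4 of the 7 factors, as for 1.87% of all tested genes. Irf8 was at 5.36, 5.41, 5.65 and 5.99 CPM in WT and at 6.95, 7.03, 7.64 and 9.23 CPM in APPPS1dE9 mice (0.47 ± 0.12, edgeR adjusted p = 0.294). Irf5 was at 3.57, 3.89, 4.35 and 4.4 CPM against 5.05, 5.12, 5.93 and 6.7 CPM (0.51 ± 0.13, edgeR adjusted p = 0.305). Runx1 was at 0.734, 0.793, 0.797 and 0.86 CPM against 1.01, 1.18, 1.46 and 2.17 CPM (0.88 ± 0.25, edgeR adjusted p = 0.349), and Ikzf1 was the other factor without overlap. With anle138b, 0 of 7 passed against 0.047% of 17033 tested genes (0 at an unadjusted p under 0.05 and 0 by DESeq2). There Irf8 differed by 0.16 ± 0.16 (edgeR adjusted p = 0.892) and Irf5 by 0.03 ± 0.13 (0.988). Runx1 differed by -0.91 ± 0.60 (edgeR adjusted p = 0.839) with mouse 39 and by 0.04 ± 0.24 (0.9985) without it. Without mouse 39, Irf8 differed by 0.06 and Irf5 by -0.02 ± 0.13. Summed choroid plexus markers differed between these groups, with medians of 5050 CPM in placebo WT, 435 in placebo APPPS1dE9, 6590 in anle138b WT and 6330 in anle138b APPPS1dE9 mice, and 1 mouse or more in each group far from its median (60.3 to 7770 CPM over the 16 mice). Their part in the values of 6 months was not tested.

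The genotype effect differed between the ages for Irf8, where the difference of the log2 fold changes (10 minus 6 months) was 0.62 ± 0.14 (edgeR adjusted p = 0.0745). This was 1 of the 7 factors called, against 0.176% of 18232 tested genes. Irf8 was at 5.15 to 9.23 CPM in the 8 APPPS1dE9 mice of 6 months and at 6.71 to 12.4 CPM in the 12 of 10 months, and in WT mice at 3.91 to 6.18 and 4.18 to 6.16 CPM. The call was near its threshold. It was lost in 25 of the 38 fits that left out 1 mouse (adjusted p from 0.0196 to 0.177), without the 9 mice of low oligodendrocyte markers (0.59 ± 0.16, edgeR adjusted p = 0.307) and among the mice with low Xist (0.43 ± 0.20, edgeR adjusted p = 0.784). The differences of the other 6 ran from 0.03 ± 0.12 (Mef2c) to 0.96 ± 0.32 (Runx1, 0.48 ± 0.18 without mouse 39) and did not pass.

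Treatment with anle138b changed none of the 7 factors past the threshold in either genotype at either age. In WT mice of 6 months 0 of 7 passed, as did 0% of 16766 tested genes (310 had an unadjusted p under 0.05, none of them a factor). In WT mice of 10 months 0 of 7 passed, as did 0% of 16986 genes (212 genes and 1 factor at an unadjusted p under 0.05). In APPPS1dE9 mice of 10 months 0 of 7 passed, as did 0% of 17110 genes (254 genes and 0 factors at an unadjusted p under 0.05). DESeq2 also called 0 genes in each of these 3 comparisons.

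In APPPS1dE9 mice of 6 months 0 of 7 passed, against 0.0529% of 17009 tested genes, with unadjusted p under 0.05 for Irf8, Runx1 and Irf5 and for 13.1% of all genes, and DESeq2 called 0 of the 7 and 204 genes in all. Irf8 was at 6.95, 7.03, 7.64 and 9.23 CPM with placebo and at 5.15, 5.16, 6.3 and 6.36 CPM with anle138b. These groups did not overlap, a separation in that direction that 2.63% of all tested genes showed, and the log2 fold change was -0.44 ± 0.12 (edgeR adjusted p = 0.28, 95% interval from -0.69 to -0.20). Runx1 changed by -0.59 ± 0.26 (edgeR adjusted p = 0.371) and Irf5 by -0.31 ± 0.13 (0.362), with overlapping groups. Beside these values, choroid plexus markers had medians of 435 CPM with placebo and 6330 CPM with anle138b, and homeostatic microglia markers summed to 519.7 ± 57.3 and 468.2 ± 43.2 CPM (SD, n = 4 each), and their part was not tested. The placebo mice of this pair are also those of the genotype comparison of 6 months, so the 2 sets of values are not independent.

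At 10 months the APPPS1dE9 mice given anle138b differed from their placebo counterparts by less than the SD of the groups in Irf8, Irf5 and Runx1. The log2 fold change was 0.03 ± 0.13 for Irf8 (interval from -0.23 to 0.29), -0.05 ± 0.09 for Irf5 (-0.23 to 0.13) and 0.04 ± 0.14 for Runx1 (-0.23 to 0.32), each with an edgeR adjusted p of 0.999. In WT mice of 10 months Runx1 was lower with anle138b in each mouse, at 0.547 to 0.781 against 0.899 to 1.28 CPM, a separation that 0.135% of all tested genes showed. The log2 fold change of -0.64 ± 0.17 had an unadjusted p of 0.00319 and did not pass over all genes (edgeR adjusted p = 1). Irf8 differed by 0.17 ± 0.12 and Irf5 by 0.00 ± 0.14 in these mice. In WT mice of 6 months Runx1 differed by 1.21 ± 0.60 with mouse 39 and by 0.25 ± 0.22 without it. Mouse 39 was at 4.57 CPM and the other anle138b mice at 0.936, 0.938 and 0.954 CPM. All 4 lay above the placebo mice (0.734 to 0.86 CPM), the opposite direction to that at 10 months. The share of all genes that separate in this direction was not counted. Apart from mouse 39 the anle138b mice had 19, 23 and 25 counts of Runx1. The placebo mice had 16, 20, 21 and 22, so the raw counts overlapped. In the WT mice of 6 months Irf8 differed by -0.12 ± 0.15 and Irf5 by 0.18 ± 0.13.

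Whether the genotype effect differed between the chows was tested by an interaction term. At 6 months 0 of 7 factors and 0% of 17404 genes passed (1390 genes and 2 factors, Runx1 and Irf5, at an unadjusted p under 0.05, and 22 genes by DESeq2, none of them a factor). The interaction of Irf8 was -0.31 ± 0.20 (-0.41 ± 0.19 without mouse 39) and that of Runx1 -1.79 ± 0.66 (-0.83 ± 0.35 without mouse 39). At 10 months 0 of 7 and 0% of 17668 genes passed (407 genes and 1 factor, Runx1, at an unadjusted p under 0.05, and 2 genes by DESeq2, none of them a factor). Runx1 had an interaction of 0.68 ± 0.20 (edgeR adjusted p = 0.989) and Irf8 one of -0.14 ± 0.18.

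Markers of microglia moved with the 5 factors at 10 months. Of 11 homeostatic microglia markers 7 rose in APPPS1dE9 mice and 0 fell (median log2 fold change 0.43), and their summed level was 455 to 707 CPM against 359 to 455 CPM in WT mice. Of 10 markers of plaque-associated microglia 8 rose (median 1.37), with sums of 227 to 375 against 141 to 179 CPM. Perivascular macrophage markers (0 of 5 called) summed to 4.69 to 12.4 against 5.43 to 16.4 CPM. The 4 monocyte, 6 neutrophil, 5 T cell and 4 B cell markers summed to at most 3.84 CPM in each list and mouse of 10 months. Of the 3 lists of neuronal markers (neurons, dentate granule cells and pyramidal cells) and those of oligodendrocytes, endothelial cells and choroid plexus no gene was called, and of the astrocyte markers 1 of 5 rose. The part of microglial number in the factors' levels was not tested.

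Set against the summed homeostatic markers of the same mouse, the factors went different ways. Irf8 was 1.73 ± 0.188% of that sum (SD, n = 12) in APPPS1dE9 mice of 10 months and 1.26 ± 0.159% (n = 10) in WT mice, with ranges of 1.4 to 2.04% and 1.06 to 1.61%. Runx1 was 0.295 ± 0.0360% against 0.218 ± 0.0679%, with overlapping ranges of 0.211 to 0.353% and 0.127 to 0.357%. By chow its means were 0.299 against 0.2655% with placebo and 0.2913 against 0.1713% with anle138b. Spi1 (0.701 ± 0.0784% against 0.667 ± 0.105%), Ikzf1 (1.13 ± 0.0805% against 1.09 ± 0.0785%) and Irf5 (1.16 ± 0.0891% against 1.11 ± 0.108%) differed by less than 1 SD, so that they moved about as these homeostatic markers did. The homeostatic sum averaged 570.6 against 409.1 CPM and the plaque-associated one 287.8 against 162.2 CPM. No ratio to the plaque-associated sum was taken, so the reading holds for the homeostatic sum only. Mef2c was 23.2 ± 2.99% against 32.2 ± 2.74% and did not overlap between the genotypes (19.1 to 28.2% against 29.2 to 38.7%). Its own level was alike (mean 131.6 against 132.0 CPM), so this ratio was lower because the marker sum was higher. The share of genes whose ratio separates so was not counted. Cebpa was 2.88 ± 0.509% against 3.06 ± 0.707%. These ratios are descriptions with no test, and their denominator rose with genotype.

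**Figure D4:**
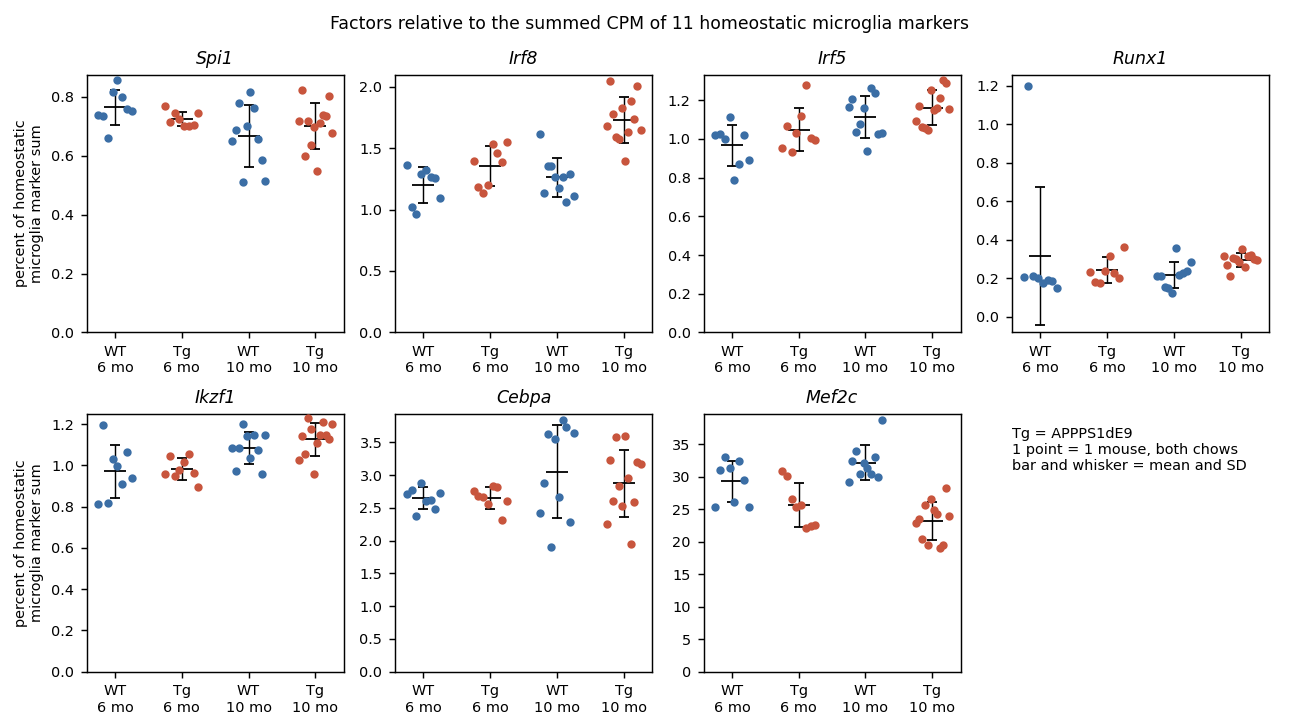
Each factor as a percent of the summed CPM of 11 homeostatic microglia markers in the same mouse, 1 point a mouse, for WT and APPPS1dE9 mice (Tg) of 6 and 10 months over both chows, with mean and SD. At 10 months Irf8 lies higher in APPPS1dE9 mice (mean 1.73 against 1.26%), Mef2c lies lower without overlap, and Spi1, Ikzf1 and Irf5 lie at like heights in both genotypes. The marker sum was higher in APPPS1dE9 mice, while the CPM of Mef2c was alike in both genotypes.

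How the factors varied together was described by Pearson correlations over the 38 mice of log2 CPM after the group means were subtracted. These points share library depth, base composition and tissue sampling, and no p is given. Spi1 and Irf8 had r = 0.693, Ikzf1 and Irf5 0.675, and Cebpa and Mef2c 0.728, the highest of the 21 pairs. Runx1 had r between -0.163 and 0.243 with the other 6 (0.0781 to 0.277 without mouse 39). With the summed homeostatic microglia markers, r was 0.806 for Ikzf1, 0.759 for Irf5, 0.71 for Spi1, 0.699 for Irf8, 0.674 for Cebpa, 0.617 for Mef2c and -0.0225 for Runx1 (0.309 without mouse 39). With oligodendrocyte markers r was 0.921 for Cebpa, 0.646 for Mef2c, 0.558 for Ikzf1 and for Irf5, 0.541 for Spi1, 0.286 for Irf8 and -0.0975 for Runx1 (0.00389 without mouse 39). Mef2c had its highest r with dentate granule cell markers (0.808), and Cebpa had 0.892 with them.

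Among 18266 genes, the nearest in this measure to both Irf8 and Spi1 was C1qc (r = 0.739 and 0.809), a chain of the complement protein C1q. Next came Tbxas1 for Irf8 (0.737) and Cyba and H2-D1 for Spi1 (0.806 and 0.8). Ikzf1 was nearest to Rgs10 and Itgb2 (0.83 and 0.828). Irf5 was nearest to Epb41l1, Angel1 and Laptm5 (0.829, 0.785 and 0.767). Cebpa was nearest to Sema7a, Hpdl and Fam84a (0.966, 0.965 and 0.952), and Mef2c to Tiam2, 2810025M15Rik and Lrrtm4 (0.863, 0.847 and 0.846). For Runx1 they were S100a6, Gm12017 and Gm17235 (0.872, 0.864 and 0.858), and without mouse 39 these fell to 0.7, 0.679 and 0.667.

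Of 23 relatives in the same protein families 17 were tested at 10 months and 0 were called by edgeR (3 had an unadjusted p under 0.05, as did 6.84% of all genes, median log2 fold change 0.05). Of 23 other transcription factors of myeloid cells 22 were tested and 3 rose, with 0 lower (median 0.19). Among them were Elf4, an ETS factor, by 0.58 ± 0.12 (edgeR adjusted p = 0.00868), and Sall1, a factor of microglial identity, by 0.21 ± 0.05 (0.0414). Sall1 stood at 27.9 CPM or more in APPPS1dE9 mice and at 30.3 CPM or less in WT mice, so the genotypes overlapped.

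Of 12 genes known as targets of PU.1, IRF8 or C/EBPalpha 11 were tested and 9 rose, with 0 lower (median 0.46). Tlr2, a receptor for bacterial lipoproteins, rose by 1.32 ± 0.15 (edgeR adjusted p = 1.1e-05), Csf3r, the G-CSF receptor, by 0.94 ± 0.09 (1.46e-06), Ctss, a lysosomal protease, by 0.86 ± 0.09 (4.53e-06) and Cybb, a subunit of the NADPH oxidase, by 0.79 ± 0.20 (0.051). Of 11 genes of signals that maintain microglia 10 were tested and 6 rose, with 0 lower (median 0.43). Tyrobp and Trem2, an adaptor and its lipid-sensing receptor, rose by 1.39 ± 0.10 (edgeR adjusted p = 1.57e-08) and 1.35 ± 0.13 (1.03e-06). Tgfb1 rose by 0.44 ± 0.11 (0.0607) and Csf1r, the receptor that microglia need to survive, by 0.43 ± 0.08 (0.00269). Csf1r, Cx3cr1, P2ry12, Trem2 and Tyrobp also stand in the microglia marker lists above. The call of Cybb was lost without any one of APPPS1dE9 mouse 91 or WT mice 61, 55 and 56 (adjusted p up to 0.114). The call of Tgfb1 was lost in 7 of the 22 fits that left out 1 mouse (adjusted p up to 0.134). Elf4, Sall1, Cybb and Tgfb1 did not pass without the 9 mice of low oligodendrocyte markers (adjusted p of 0.165, 0.544, 0.482 and 0.558), and Sall1 and Tgfb1 did not among the mice with low Xist (0.314 and 0.402).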

How the data were processed

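Hippocampal mRNA of 38 mice was sequenced by the authors. Per the labels and the study's methods, reads were aligned to mm10 (STAR) and counted per gene with HTSeq, and the deposited files hold raw counts of 48709 Ensembl genes per mouse. The strand setting and annotation release are not given in the sources used here. Symbols, exon lengths and coordinates came from GENCODE M21, which named 48349 genes, and promoter windows from RefSeq. Groups followed the titles. Total counts had a median of 24530658 per mouse.

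Counts were tested with edgeR 4.0.16 (limma 3.58.1, R 4.3.3): filterByExpr (minimum count 10, minimum total 15), TMM, robust quasi-likelihood fits and Benjamini-Hochberg adjustment over all genes that passed, at 0.1. Comparisons of a pair of groups were fitted on those groups, and the others on all groups of the age or, for age, on all 8 groups. SEs were derived from the F statistic. The code was tested on simulated data. Correlations used log2 CPM (prior count 2). The 75 pairs of mice within groups differed by more than counting error (chi-square per degree of freedom 2.99 to 59.6), so none was treated as a repeated library.

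Alternatives were DESeq2 1.42.0, RLE size factors, no filter, an adjusted p of 0.05, Y-linked expression as a covariate, all 4 groups of an age in 1 fit, a replicate block, single lanes, and leaving out each mouse. The sets without low oligodendrocyte markers (under 3500 CPM) and with low Xist (under 100 CPM) were added after the data were seen.

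Members and lists were chosen with earlier results of these data known. Genes were named by rule: the 7 factors, up to 4 genes of each list with the largest change at 10 months over both chows among those called, the 3 genes nearest to each factor in correlation, and App, Prnp and Xist as checks of labels. Some genes that this rule names are not reported here. Spi1 has no entry in the promoter table.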

Additional observations from a re-analysis of the deposited data

Results flagged for a closer look

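A sample far from the others of its group was looked for in 56 sets, each factor in each group. Runx1 stood at 4.57 CPM in anle138b-treated WT mouse 39 of 6 months, against 0.936 to 0.954 CPM in the other 3 mice of that group. Chance flags about 1 in 20 groups.

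The genotype effect on Irf8 differed between the ages by the interaction test, with a difference of 0.615 ± 0.14 (SE) on the log2 scale (edgeR adjusted p = 0.0745). The effect was 0.31 ± 0.10 at 6 months and 0.92 ± 0.09 at 10 months. The call was lost at an adjusted p of 0.05, without a filter, in both smaller sets of mice and in 25 of the 38 fits that left out 1 mouse.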

How the results depend on the processing

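The 5 factors called for genotype at 10 months over both chows were also called by DESeq2, with RLE size factors, without a filter, at 0.05 and with the Y-linked covariate. The count was 3 without the mice of low oligodendrocyte markers and 3 among the mice with low Xist. In placebo mice of 10 months it was 1, but 2 by DESeq2 and 2 with all 4 groups in 1 fit. The genotype by age count of 1 became 0 at an adjusted p of 0.05, 0 without a filter, 0 without the mice of low oligodendrocyte markers, 0 among the mice with low Xist, and 0 to 1 over the fits that left out a mouse. The cause was not tested.

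Library numbers did not pair the mice in any of 8 comparisons (correlations of deviations from -0.548 to 0.567). With a replicate block, the count in anle138b mice of 10 months was 0 instead of 3 (Irf8 0.76, Runx1 1.25 and Irf5 0.46 on the log2 scale) and 20 genes were called in all instead of 124, while the counts of factors in the other 7 comparisons of a pair of groups were the same.

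Signs turned only for values that had not passed. Irf5 in WT mice of 10 months under anle138b went from 0.00 to -0.00686 by DESeq2 and -0.00095 with the Y-linked covariate. In APPPS1dE9 mice of 10 months under anle138b, the covariate gave -0.0187 for Irf8 and -0.0282 for Runx1, and the replicate block -0.0683 for Irf8. Lane 5 alone, which held only mouse 58 of this anle138b group, gave -0.277 for Runx1 and 0.0172 for Irf5. Mef2c was 0.0025 for genotype at 10 months among the mice with low Xist, and -0.0158 for genotype by age without the mice of low oligodendrocyte markers.

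Leaving out 1 mouse gave ranges across 0 for genotype at 6 months with anle138b (Runx1 -1.15 to 0.0431, Irf5 -0.0556 to 0.0897) and over both chows (Runx1 -0.14 to 0.461). It did so for anle138b at 10 months in WT mice (Irf5 -0.0817 to 0.0876) and APPPS1dE9 mice (Irf8 -0.0313 to 0.104, Runx1 -0.0168 to 0.0958, Irf5 -0.0848 to 0.00096). The ranges of Mef2c were -0.067 to 0.023 for genotype at 10 months and -0.0185 to 0.0749 for genotype by age.

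Calls over all genes moved by over 1.5 times with the tool, the filter and the covariate. For genotype edgeR and DESeq2 called 12 and 139 genes (placebo) and 8 and 47 (anle138b) at 6 months, 38 and 164 over both chows, and 124 and 189 at 10 months with anle138b. With placebo at 10 months edgeR called 55, and DESeq2 more than 1.5 times as many. For anle138b in APPPS1dE9 mice of 6 months they called 9 and 204, and for genotype by age 32 and 60. Without a filter edgeR called 110 (genotype, 6 months, placebo), 120 (anle138b, 6 months, APPPS1dE9) and 10 (genotype by age). With the Y-linked covariate it called 4 (genotype, 6 months, placebo), 7 (6 months, both chows), 14 and 269 (10 months, placebo and anle138b) and 116 (anle138b, 6 months, APPPS1dE9), and in anle138b mice of 10 months 4 factors instead of 3, with Ikzf1 added. Depth limits Runx1 most, at 13 to 83 counts per mouse.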
